A study of Caenorhabditis elegans with 8 samples.

Results

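The nspb and nspc genes encode nematode-specific peptides of groups B and C, and the fip and fipr genes encode the fungus-induced proteins and their relatives. Members were chosen by symbol (nspb, nspc, fip or fipr followed by a number) among genes with an expression value above 0 in at least 1 library. By this rule 57 genes were members of 47087 loci in the table: 12 nspb, 17 nspc, 6 fip and 22 fipr. Another 9 genes with such symbols stood at 0 in all 8 libraries, namely nspc-15, fip-7, fipr-12, fipr-14, fipr-15, fipr-17, fipr-19, fipr-27 and fipr-28. Just inside the rule lay fipr-18, with 1 read in DL 2 and 0 in every other library, and fipr-25, with 1 read in DL 3 and 1 in NL 1. The rule read only whether a gene was detected, not how it differed between the groups. The families themselves were chosen with earlier results of these data known.

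RNA of whole wild-type (N2) Caenorhabditis elegans was poly(A)-selected and sequenced in 8 libraries, 4 for each of 2 groups. Worms of the DL group were kept at 20 °C under cycles of 12 h light (LED, 8000 lux) and 12 h dark, and worms of the NL group at 20 °C in unbroken darkness. All came from synchronised L1 larvae grown for 40 h on OP50 bacteria, and the labels call them young adults. Each of 4 labelled batches holds 1 DL and 1 NL library. The labels do not say that replicates were grown as separate cultures, and p-values then reflect library-to-library spread that could be technical.

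Many short secreted peptides of C. elegans come from clusters of similar genes. The fip genes take their name from induction by the fungus Drechmeria coniospora, which infects worms through the cuticle and induces antimicrobial peptide genes in the epidermis. The fipr genes are named for their likeness to fip genes, and the nspb and nspc genes for belonging to families found in nematodes; for most single members no function is established. The annotated exons of the members were short, from 129 bases in fipr-20 to 776 in fipr-23. Secretion was not checked, since no protein sequence was used here.

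Values are FPKM, fragments per kilobase of exon scaled to the size of the library. Levels of different members compare only roughly, because reads of similar copies may be miscounted and recovery of short transcripts was not tested. Gene-assigned reads, worked out from the spacing of low values, numbered 18628030 to 20394371 per library, and 1 read in 1 kb of exon was worth 0.0463 to 0.0546 FPKM. Deposited values of all genes summed to 661483 FPKM in DL 1, the least, and 969531 FPKM in DL 3, the most. Where single libraries lie close, their order can depend on this scaling. Markers of epidermis, intestine, body wall muscle, pharynx, neurons and germline were present in every library. Sperm and adult markers were uneven: the mean log2(FPKM + 1) of 11 sperm marker loci was 3.87 to 5.43 in DL, against 1.22, 1.46, 3.88 and 0.40 in NL 1 to NL 4. That of 5 adult markers (col-7, col-19, vit-2, vit-5 and vit-6) was 5.79 in DL 2 and 4.77 in NL 3, and 1.35 or less in the other libraries, although all carry the label of young adults. NL 3 and DL 2 therefore stand apart from their groups, and counts are also given without them. NL 1 and NL 2 were the most alike libraries of a group (chi-square per gene 8.06, against 23.7 between DL 3 and DL 4 and at least 58.6 in all other within-group pairs).

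The first question was how strongly each subfamily was expressed. Over the 8 libraries the highest members were fipr-21 (mean 309.6 FPKM), nspc-20 (232), nspc-14 (182), nspc-10 (109.9) and fipr-2 (109), and these were the 5 members over 100 FPKM. The 12 nspb genes were of one order, with means from 3.81 FPKM for nspb-9 to 21.2 FPKM for nspb-12, apart from nspb-5 at 0.18 FPKM. Of the 6 fip genes, fip-2, fip-5 and fip-6 stood between 22.1 and 82.4 FPKM and fip-1, fip-3 and fip-4 at 0.388 FPKM or less. In all, 30 members had a mean of at least 10 FPKM and 11 a mean under 1 FPKM.

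Summed over all 57 members, the families took 0.212, 0.172, 0.192 and 0.167% of all FPKM in DL 1 to DL 4, against 0.230, 0.254, 0.295 and 0.290% in NL 1 to NL 4. Every DL share was below every NL share. The nspb sum was 69.7, 60.2, 89.99 and 68.5 FPKM in DL, against 251.5, 225.4, 166.1 and 169.1 FPKM in NL, again without overlap. For fipr the sum was 429.5, 506, 741 and 448 FPKM in DL, against 704, 682, 815 and 883 FPKM in NL, where DL 3 exceeded NL 1 and NL 2. As a share of all FPKM, however, fipr took 0.0501 to 0.0764% in DL and 0.0823 to 0.107% in NL, without overlap. The nspb shares were apart as well, and those of nspc and fip overlapped. The nspc sum (829, 657, 838 and 852 FPKM in DL, against 811, 1030, 1223 and 1179 FPKM in NL) overlapped, and so did the fip sum (73.7, 124.6, 190.2 and 123.1 FPKM in DL, against 169, 164, 146 and 163 FPKM in NL). In whole worms, fewer cells that make a transcript and less transcript per cell cannot be told apart.

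DL was compared with NL by limma on log2(FPKM + 1), fitted over the 14358 genes whose mean reached 1 FPKM and adjusted over all of them by the Benjamini-Hochberg method. Of the 57 members 46 were tested, 11 nspb, 15 nspc, 3 fip and 17 fipr. Among these 46, 7 fell in DL and 0 rose: nspb-1, nspb-3, nspb-7, nspb-8, fipr-9, fipr-10 and fipr-11. Over all tested genes 0.703% were called, 0.411% as lower and 0.293% as higher in DL. That split over all genes, 59 lower and 42 higher, moved with scaling: 32 and 41 with the same sum in each library, 149 and 67 after quantile normalization, and 106 and 44 when centred on the median gene. The members called were all lower in DL under each of these scalings. At an unadjusted limma p under 0.05, 31 tested members were lower in DL (8.24% of all tested genes) and 0 were higher (12.4% of all tested genes). The median log2 change of the tested members was -1.23 for nspb, -0.33 for nspc, -0.20 for fip and -1.25 for fipr, beside 0.03 over all tested genes. Among the tested, nspc-2 (WBGene00044337) and fipr-23 had a mean under 1 FPKM in DL and passed the filter through NL alone. Both enter these medians, and the fipr median is the value of fipr-23 itself. Without any filter, over all 57 members, the medians were -1.21, -0.28, -0.13 and -0.997, and 45 members had a lower mean in DL than in NL, as had 49.9% of all genes above 0.

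**Figure D1:**
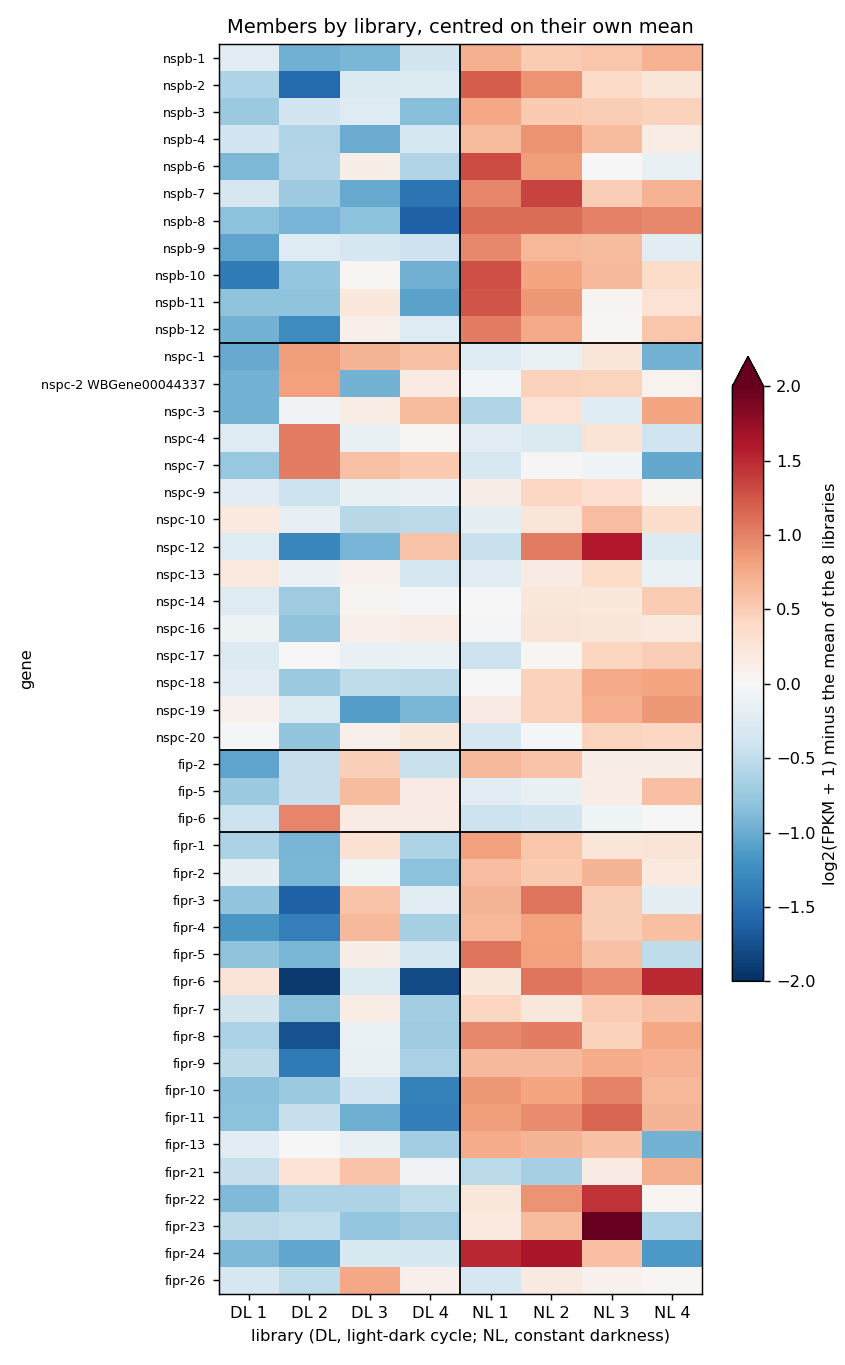
Each row is a tested member and each column a library, DL left of NL; colour gives log2(FPKM + 1) minus that gene's mean over the 8 libraries, from -2 (blue) to 2 (red, values above 2 drawn as 2). The nspb block is below its mean in most DL cells and above it in most NL cells, while the nspc and fip blocks are mixed.

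**Figure D2:**
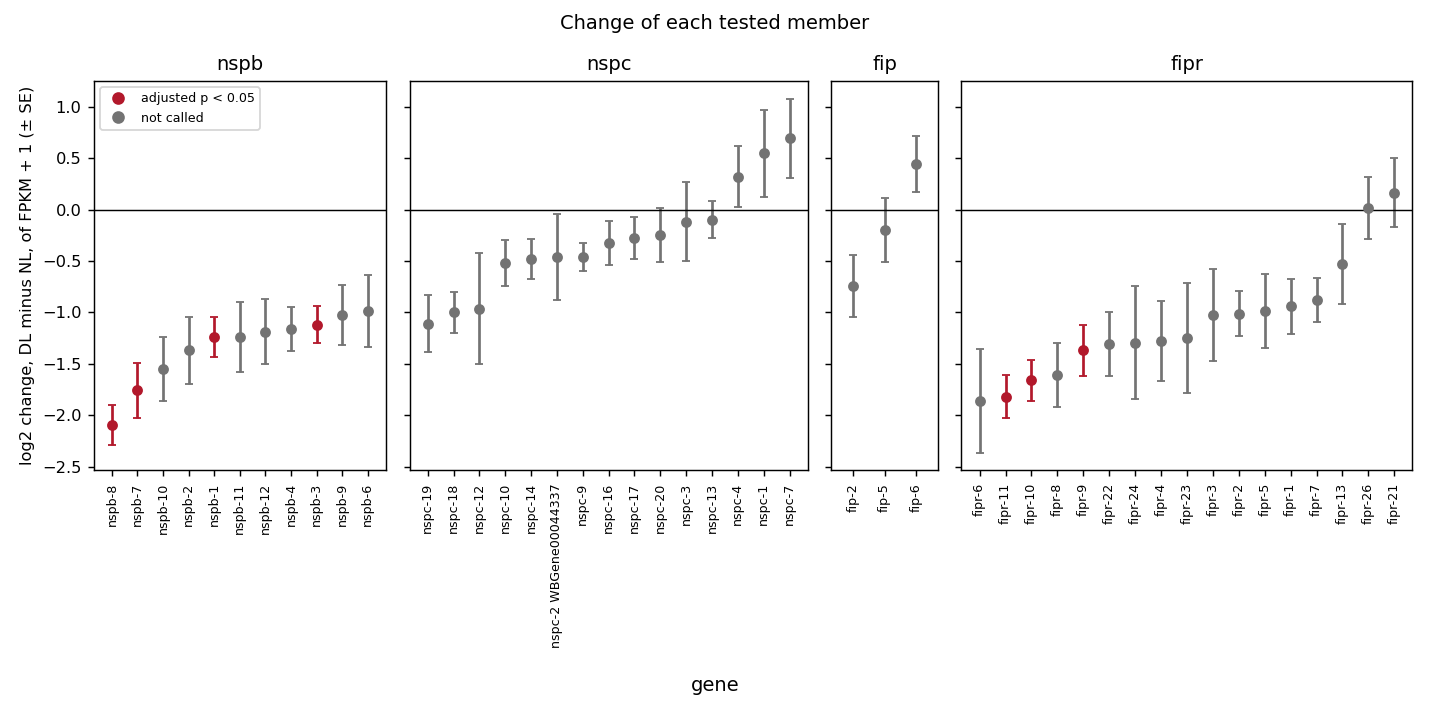
Points are log2 changes (DL minus NL, on log2(FPKM + 1)) with SE for the 46 tested members, by subfamily; red points have a limma adjusted p under 0.05. All 11 nspb changes lie below 0, between -2.09 and -0.99, and the nspc changes run from -1.11 to 0.69.

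Of the 12 nspb genes 4 fell in DL, 7 did not pass the test and nspb-5 was not tested. Every tested nspb gene had a negative log2 change (46.5% of all tested genes had one), and the 4 that fell were nspb-8, nspb-7, nspb-1 and nspb-3. The 4 DL libraries lay below the 4 NL libraries in 8 of 11 nspb genes, against 4.80% of all tested genes; in 0 of 11 did they lie above them (4.44% of all tested genes). In the same 8 the DL library was the lower one in each of the 4 batches (10.8% of all tested genes). Separate groups imply this, so the batch count is no separate result. In all 11 the highest library was an NL one, NL 1 in 8 and NL 2 in 3.

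The strongest of them was nspb-8, a group B peptide gene on chromosome II at 14580254 to 14580649 (WBcel235). Its level was 7.52, 6.89, 7.47 and 3.88 FPKM in DL 1 to DL 4, against 31.4, 31.6, 29.1 and 28.1 FPKM in NL 1 to NL 4. These are 57, 49, 48 and 27 reads in DL, against 208, 220, 203 and 189 reads in NL. Both groups were tight and far apart, and its log2 change was -2.09 ± 0.19 (SE; limma adjusted p = 0.0048; 0.0404 with the batch as a block). Some 1656 bases before it lies nspb-7, on the opposite strand, with 12.2, 9.05, 7.28 and 5.05 FPKM in DL, against 31.6, 41.1, 22.4 and 25.9 FPKM in NL. The groups of nspb-7 did not overlap, although its NL libraries spread more widely, and the log2 change was -1.76 ± 0.27 (limma adjusted p = 0.0322; 0.0528 with the batch as a block). The other members of this locus, nspb-9 and nspb-10, did not pass the test, with log2 changes of -1.03 ± 0.29 and -1.55 ± 0.31 (limma adjusted p = 0.106 and 0.0625). In both, every DL library was below every NL library.

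A second nspb locus, on chromosome IV at 6590734 to 6599610, holds nspb-1 to nspb-5. The level of nspb-1 was 13.8, 7.82, 8.16 and 12.3 FPKM in DL, against 27.3, 23.7, 24.2 and 26.9 FPKM in NL. That of nspb-3 was 3.02, 4.16, 4.601 and 2.74 FPKM in DL, against 10.51, 8.62, 8.47 and 8.23 FPKM in NL. No DL value reached an NL value in either gene. Their log2 changes were -1.24 ± 0.19 for nspb-1 and -1.12 ± 0.18 for nspb-3 (limma adjusted p = 0.0326 and 0.0354; 0.0771 and 0.133 with the batch as a block). Between and beside them, nspb-2 and nspb-4 also had separate groups, at 5.48 ± 2.22 and 4.41 ± 1.03 FPKM in DL, against 15.4 ± 5.13 and 11.1 ± 2.49 FPKM in NL (SD, n = 4 each; limma adjusted p = 0.0923 and 0.0504). The fifth gene, nspb-5, was near silent, with 1, 1, 0 and 4 reads in DL, against 1, 1, 7 and 0 reads in NL.

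On the deposited scale the nspb genes that lie alone were less even. The highest of the family, nspb-12 on chromosome III, stood at 9.22, 7.18, 19.9 and 15.3 FPKM in DL, against 38.8, 32.0, 19.2 and 27.7 FPKM in NL (log2 change -1.19 ± 0.32, limma adjusted p = 0.102). Its groups touched, since DL 3 was above NL 3. The same crossing of DL 3 and NL 3 was seen in nspb-6 (12.4 against 11.3 FPKM) and nspb-11 (9.20 against 8.20 FPKM), whose log2 changes were -0.99 ± 0.35 and -1.23 ± 0.34 (limma adjusted p = 0.15 and 0.104). All FPKM summed to 969531 in DL 3 and 796840 in NL 3, and the 3 crossings depend on that scaling. In the labels DL 3 and NL 3 belong to the same batch. On the deposited scale these were the 3 tested nspb genes that were not lower in DL in every batch.

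**Figure D3:**
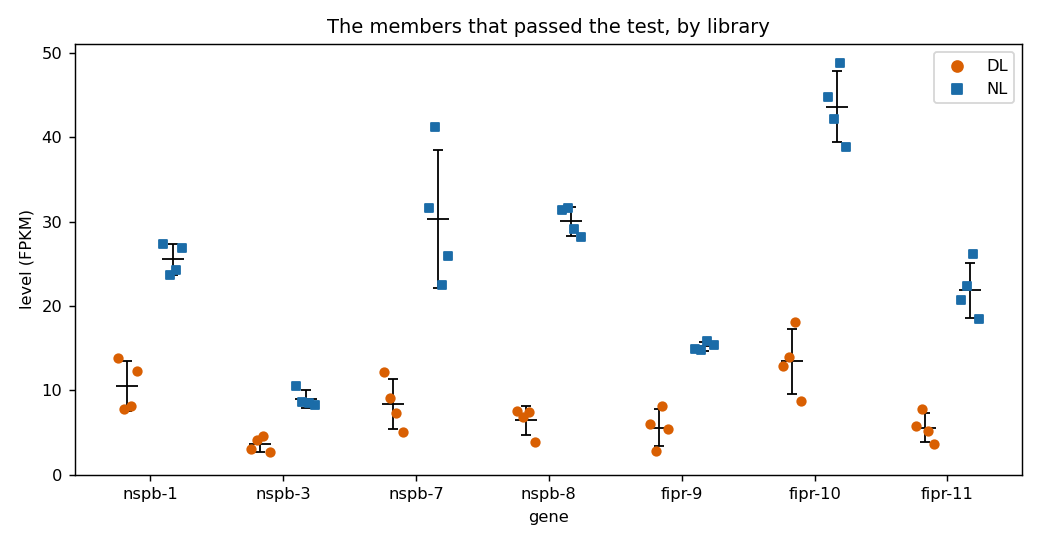
FPKM of the 7 members that passed the test, 1 point per library (DL circles, NL squares), with the mean and SD of 4 libraries as bars. In each of the 7 genes every DL library lies below every NL library; these genes were selected for a difference.

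The nspc genes had smaller differences, and not all in one direction. Of 15 tested 0 passed the test, and 5 had an unadjusted limma p under 0.05, all lower in DL (8.24% of all tested genes). Log2 changes were negative in 12 (46.5% of all tested genes) and positive in 3. The groups were apart in 3, with DL lower, against 4.80% of all tested genes. All nspc genes lie on chromosome X in 3 loci, and values are given by locus because the loci differed in level. The locus of nspc-1 to nspc-7 (8534672 to 8542283) was low, with a sum of 36.0 ± 16.03 FPKM in DL and 25.7 ± 4.54 FPKM in NL. The loci of nspc-9 to nspc-14 (12342946 to 12359057) and nspc-16 to nspc-20 (14523575 to 14530207) summed to 368 ± 40.0 and 390 ± 65.8 FPKM in DL, against 504.5 ± 66.3 and 531 ± 122 FPKM in NL.

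At the low locus the group C genes nspc-1 and nspc-7 had the largest positive changes. The level of nspc-1 was 3.69, 15.98, 14.2 and 13.2 FPKM in DL, against 6.95, 7.64, 10.2 and 3.89 FPKM in NL (log2 change 0.55 ± 0.42, limma adjusted p = 0.513). That of nspc-7 was 3.70, 15.2, 10.9 and 10.47 FPKM in DL, against 5.36, 7.10, 6.55 and 2.92 FPKM in NL (0.69 ± 0.39, limma adjusted p = 0.356). In both genes DL 1 was low and the other DL libraries were above all NL libraries. The highest library of nspc-4 was also DL 2, at 12.8 FPKM, with 4.197 to 7.24 FPKM in the other libraries. Thus 3 of the 5 tested genes of this locus had a positive change, and 0 of the 10 tested genes of the other loci had one; this split was seen in the data and was not tested.

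The more abundant nspc genes had lower means in DL, and none passed the test. The most negative log2 changes were those of nspc-19 and nspc-18, which lie 1039 bases apart on opposite strands. For nspc-18 the levels were 62.3, 42.8, 50.7 and 49.6 FPKM in DL, against 72.3, 99.4, 122.6 and 125.8 FPKM in NL (log2 change -0.999 ± 0.20, limma adjusted p = 0.0609). For nspc-19 they were 31.04, 24.01, 13.1 and 15 FPKM in DL, against 32.8, 40.8, 49.1 and 54.5 FPKM in NL (-1.11 ± 0.28, limma adjusted p = 0.0986). Both had groups that did not overlap, with the batch 1 libraries closest to each other (differences of -0.21 and -0.08 on the log2 scale). Their neighbour nspc-20, the highest of the family, stood at 219, 129.6, 242 and 262 FPKM in DL, against 179, 218, 307 and 301 FPKM in NL (-0.25 ± 0.26, limma adjusted p = 0.645), with overlapping groups.

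At the middle locus nspc-9 was the third gene with separate groups, at 71.7, 61.9, 75.0 and 76.5 FPKM in DL, against 90.9, 111, 106 and 86.4 FPKM in NL (log2 change -0.46 ± 0.14, limma adjusted p = 0.113). The log2 change of nspc-14 was -0.48 ± 0.19 (limma adjusted p = 0.2) and that of nspc-10 was -0.52 ± 0.22 (limma adjusted p = 0.225). At this locus nspc-12 had the largest SE on the log2 scale (-0.96 ± 0.54, limma adjusted p = 0.358), with 7.14, 2.91, 4.09 and 13.4 FPKM in DL, against 6.13, 18.96, 28.5 and 6.99 FPKM in NL, where libraries of a group differed more than the groups did. Taking all 17 nspc genes, DL 2 had the lowest sum of the 4 DL libraries.

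**Figure D4:**
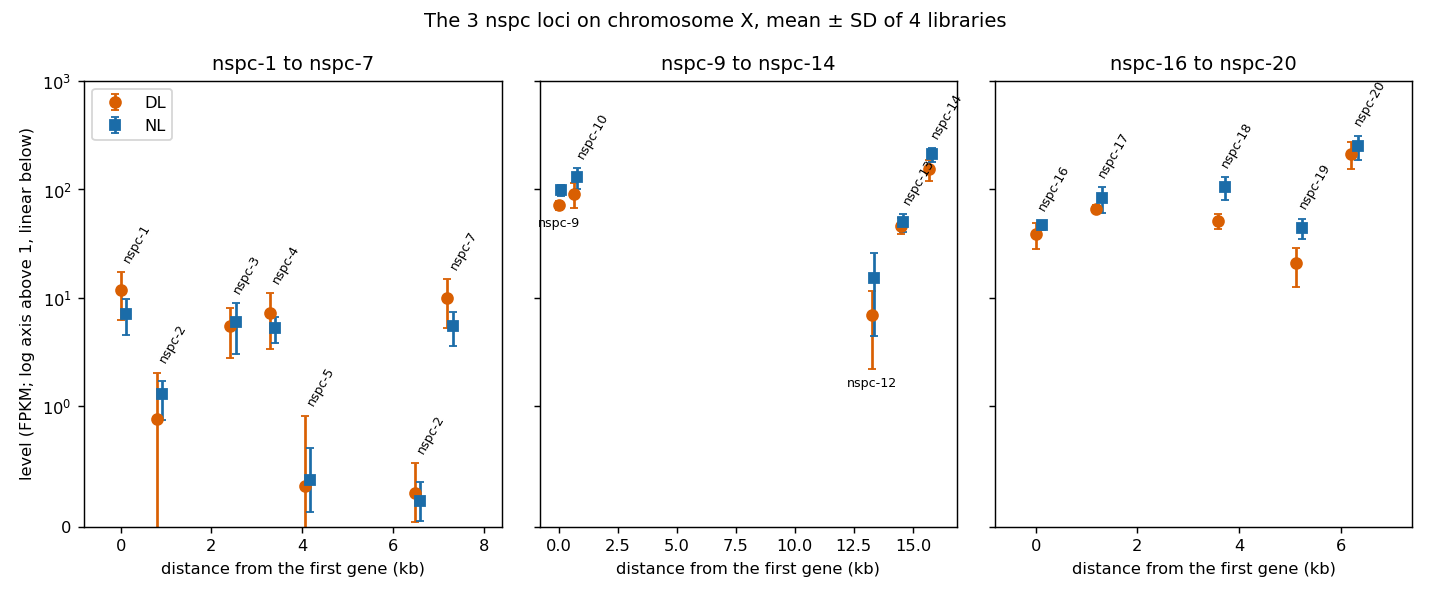
Mean FPKM and SD of 4 libraries for each nspc gene (DL circles, NL squares) against its distance in kb from the first gene of its locus on chromosome X; the axis is logarithmic above 1 FPKM and linear below. Means at the first locus are 11.8 FPKM or less, while those of the other loci run from 20.8 to 251 FPKM, except nspc-12 at 6.88 FPKM in DL and 15.2 FPKM in NL.

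No fip gene passed the test: of 3 tested, 0 were called. An unadjusted limma p under 0.05 was reached by 1 (fip-2, lower in DL), against 8.24% of all tested genes in that direction. The level of fip-2 was 36.2, 55.5, 107.4 and 56.3 FPKM in DL, against 120.4, 114.8, 84.4 and 83.8 FPKM in NL (log2 change -0.74 ± 0.30, limma adjusted p = 0.201). DL 3 lay inside the NL range and the other DL libraries below it. In fip-5 the levels were 22, 26.9, 58.3 and 42.2 FPKM in DL, against 32.3, 33.7, 41.4 and 57.3 FPKM in NL (-0.20 ± 0.31, limma adjusted p = 0.762). The change of fip-6 was 0.44 ± 0.27 (limma adjusted p = 0.404), with DL 2 at 42.3 FPKM and the other 7 libraries at 15.2 to 23.6 FPKM. The last, fip-1, was barely detected, with 0, 0, 5 and 2 reads in DL, against 1, 0, 5 and 5 reads in NL.

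Most fipr genes, like the nspb genes, had lower values in DL. Of 17 tested, 15 had negative log2 changes, as had 46.5% of all tested genes. By the test 3 fell (fipr-9, fipr-10 and fipr-11), against 0.411% of all tested genes. An unadjusted limma p under 0.05 was reached by 14, all lower in DL, against 8.24% of all tested genes. The 15 and the 14 include fipr-23, which passed the filter through NL alone. The groups did not overlap in 7 of 17, with DL lower, against 4.80% of all tested genes. Among the 4 DL libraries DL 3 was the highest in 12 of the 17 and DL 2 the lowest in 11. DL 3 also had the largest sum of all FPKM.

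Of the called genes, fipr-11 and fipr-10 are neighbours on chromosome V, at 9905853 to 9906215 and 9914163 to 9914529. The level of fipr-11 was 5.83, 7.76, 5.15 and 3.65 FPKM in DL, against 20.7, 22.3, 26.1 and 18.4 FPKM in NL. That of fipr-10 was 12.9, 13.9, 18.1 and 8.78 FPKM in DL, against 44.8, 42.1, 48.7 and 38.8 FPKM in NL. Every DL library was below every NL library, with log2 changes of -1.82 ± 0.21 and -1.66 ± 0.20 (limma adjusted p = 0.0114 and 0.0138; 0.0461 for each with the batch as a block). Both lie within introns of longer genes of the other strand, fipr-11 in egl-47 and fipr-10 in mec-9, and share 0 exon bases with them. Those hosts were low, egl-47 at 0.381 ± 0.179 FPKM in DL and 0.587 ± 0.178 FPKM in NL, and mec-9 at 1.47 ± 0.0633 FPKM in DL and 1.59 ± 0.156 FPKM in NL (SD, n = 4 each).

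A cluster of 6 fipr genes lies on chromosome V at 10220981 to 10239961. In it fipr-9 stood at 5.99, 2.80, 8.10 and 5.41 FPKM in DL, against 14.9, 14.8, 15.9 and 15.3 FPKM in NL, which is the narrowest NL group of the called genes (log2 change -1.37 ± 0.25, limma adjusted p = 0.0494; 0.117 with the batch as a block). The groups were also apart in fipr-8 (7.98 ± 3.66 FPKM in DL, against 24.7 ± 4.27 FPKM in NL; limma adjusted p = 0.0569) and fipr-7 (24.5 ± 8.20 FPKM in DL, against 44.4 ± 4.61 FPKM in NL; limma adjusted p = 0.0963). They overlapped in fipr-4, fipr-5 and fipr-6. For fipr-4 DL 3 stood at 25.2 FPKM on the deposited scale, inside the NL range of 22.5 to 28.0 FPKM, and the other DL libraries at 5.45 to 9.48 FPKM. For fipr-6, which had the most negative fitted change of the subfamily (-1.86 ± 0.50, limma adjusted p = 0.102), DL held 16.3, 2.81, 10.9 and 3.19 FPKM, against 15.8, 29.3, 26.7 and 39.5 FPKM in NL. Here DL 1 exceeded NL 1, its partner of the same batch.

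The abundant pair fipr-1 and fipr-2, also on chromosome V, differed in the same direction. For fipr-2 the levels were 87.8, 52.7, 94.5 and 56.6 FPKM in DL, against 154, 145.7, 162.3 and 115.1 FPKM in NL (log2 change -1.01 ± 0.22, limma adjusted p = 0.075), with no overlap. For fipr-1 they were 30.2, 24.5, 59.1 and 30.6 FPKM in DL, against 85.0, 70.4, 56.5 and 57.4 FPKM in NL (-0.94 ± 0.26, limma adjusted p = 0.105), with DL 3 above NL 3 and NL 4 on the deposited scale. The highest member of all, fipr-21 on chromosome X, did not share the direction: it stood at 213, 359, 434 and 278 FPKM in DL, against 202, 183, 328 and 480 FPKM in NL (0.17 ± 0.34, limma adjusted p = 0.824). Its neighbour fip-5, 1385 bases away on the same strand, was likewise lowest in DL 1 among the DL libraries.

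The 3 fipr genes at 14153228 to 14158078 of chromosome I were uneven within NL. In fipr-24 the levels were 4.599, 4.08, 7.49 and 7.16 FPKM in DL, against 28.6, 31.2, 14.9 and 3.71 FPKM in NL. NL 4 was the lowest of all 8 libraries. In fipr-23 NL 3 alone was high, at 8.49 FPKM, with 0.141 to 0.382 FPKM in DL and 0.269 to 2.01 FPKM in the other NL libraries. For fipr-22 the groups were apart, at 1.38 ± 0.248 FPKM in DL and 5.33 ± 2.89 FPKM in NL (limma adjusted p = 0.0914).

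Copies and neighbours limit these values. Of the 57 members 47 lie within 20 kb of another member, in 13 loci, and 26 of the 34 adjacent pairs are on opposite strands. The symbol nspc-2 is carried by 2 genes of 306 exon bases on opposite strands of the same locus, WBGene00044337 with 0, 15, 0 and 7 reads in DL, against 5, 10, 10 and 6 reads in NL, and WBGene00044357 with 1, 3, 0 and 3 reads in DL, against 2, 0, 2 and 1 reads in NL. Likewise fipr-18 and fipr-19 both have 132 exon bases and lie beside each other on chromosome III, with 1 read and 0 reads in all. The silent genes fipr-14 and fipr-15 have 153 bases each, as has fip-3 on chromosome III. Equal length alone does not mark a copy, since fipr-21 on chromosome X and nspb-10 on chromosome II both have 339 bases. Reads that fit several copies may have been dropped or split by the authors' counting, so the levels of similar copies are uncertain; sequence identity was not measured here. Exons are shared with another gene in 3 members: fip-4 shares 192 of its 288 exon bases with smk-1, fip-2 shares 23 with T27E4.5, and fipr-3 shares 13 with F23D12.11, all on the other strand.

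Other genes inside the loci gave a local comparison. There were 10 tested genes between members, of which 0 were called and 5 had positive log2 changes. In the nspb locus of chromosome II, C01G12.3 stood at 6.61 ± 5.35 FPKM in DL, against 1.80 ± 2.98 FPKM in NL, and C01G12.9 at 2.78 ± 2.29 FPKM in DL, against 0.669 ± 0.998 FPKM in NL. Their log2 changes of 1.73 ± 0.63 and 1.16 ± 0.48 (limma adjusted p = 0.164 and 0.207) were opposite in sign to those of the nspb genes around them. In the fipr cluster of chromosome V, daf-36, which encodes a Rieske oxygenase of steroid hormone synthesis, had a log2 change of 0.72 ± 0.26 (limma adjusted p = 0.156), and its neighbours pyt-1 and fubl-1 had changes of -0.71 ± 0.29 and -0.11 ± 0.17 (limma adjusted p = 0.199 and 0.752). Beside fip-5 and fipr-21, F41E7.20 had a change of -1.05 ± 0.34 (limma adjusted p = 0.128).

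Other short peptide families were described for comparison. Over all tested genes 46.5% had a negative log2 change. Of the nematode-specific groups, 9 of 9 tested nspd genes had positive log2 changes (median 2.36) and 0 were called; nspd-1 stood at 35.7 ± 26.8 FPKM in DL, against 3.56 ± 4.15 FPKM in NL. In nspa 3 of 3 tested genes had positive changes and 0 were called, and 0 of 2 tested nspe genes were called. Among the tested, 3 nspd genes and 1 nspa gene had a mean under 1 FPKM in NL. They passed the filter through DL alone, so their direction follows from the filter. Both nspe genes passed the filter through NL alone, with DL means of 0.243 FPKM for nspe-1 and 0.311 FPKM for nspe-2, so their direction follows from the filter, and the other 6 nspe genes were not tested. The nspe gene nspe-1 held 0, 0, 0.506 and 0.467 FPKM in DL, against 6.62, 4.43, 17.5 and 2.42 FPKM in NL. Among antimicrobial peptide genes of the epidermis, 4 of 4 tested cnc genes had positive changes (median 0.57) and 8 of 10 tested genes from nlp-24 to nlp-34 negative ones (median -0.43), with 0 called in either. The abf genes had 3 of 3 negative changes, with a median of -0.20 and 0 called. An unadjusted limma p under 0.05 was reached by 9 nspd and 2 nspa genes, all higher in DL (12.4% of all tested genes). The nspd and nspa genes that passed through DL alone were among these. Such a p was also reached by 1 nlp gene, lower in DL (8.24% of all tested genes), by both nspe genes that passed through NL, and by 0 cnc and 0 abf genes.

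Marker levels of several tissues differed between the groups, and their part in the results was not tested. As mean log2(FPKM + 1), epidermis markers stood at 6.78 ± 0.20 in DL and 6.27 ± 0.28 in NL (SD, n = 4 each). The libraries overlapped, at 6.57 to 7.03 in DL and 6.06 to 6.67 in NL. Most of this gap came from bli-1 (log2 change 2.51). Of the other epidermis markers elt-3 was lower in DL (-0.44), and the rest had changes from 0.13 (rol-6) to 0.40 (sqt-3). Germline markers stood at 6.95 ± 0.45 in DL and 6.38 ± 0.40 in NL, and oocyte markers at 3.81 ± 0.89 in DL and 2.71 ± 0.59 in NL (SD, n = 4 each). Pharynx markers stood at 4.88, 4.36, 4.93 and 4.35 in DL, against 5.82, 5.70, 4.42 and 5.24 in NL, and body wall muscle at 7.95 ± 0.23 in DL and 8.36 ± 0.45 in NL (SD, n = 4 each). NL 1 and NL 2 were thus the highest in pharynx markers, as in most nspb genes, and NL 3 lay within the DL range. The widest gap was that of the sperm markers. NL 3, with a sperm marker mean of 3.88, matched DL 1 (3.87), DL 4 (3.94) and DL 3 (4.39) in this measure. The mean log2(FPKM + 1) of the 11 tested nspb genes was 2.66, 2.61, 3.03 and 2.66 in DL 1 to DL 4, against 4.43, 4.25, 3.86 and 3.78 in NL 1 to NL 4. For the 17 fipr genes it was 3.21, 2.89, 3.75 and 3.12 in DL, against 4.36, 4.49, 4.53 and 3.99 in NL. In both, NL 3 lay within the NL range, and NL 4, which had the lowest sperm marker mean (0.40), was the lowest of NL. NL 3 is 1 library, and the part of the sperm markers in these levels was not tested. NL 3 was above all 4 DL libraries in 8 of 11 nspb, 10 of 15 nspc, 0 of 3 fip and 12 of 17 fipr genes, against 19.9% of all tested genes. Genes whose groups were apart, 8 nspb, 3 nspc and 7 fipr, meet this by definition. For them the count is no separate result.

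**Figure D5:**
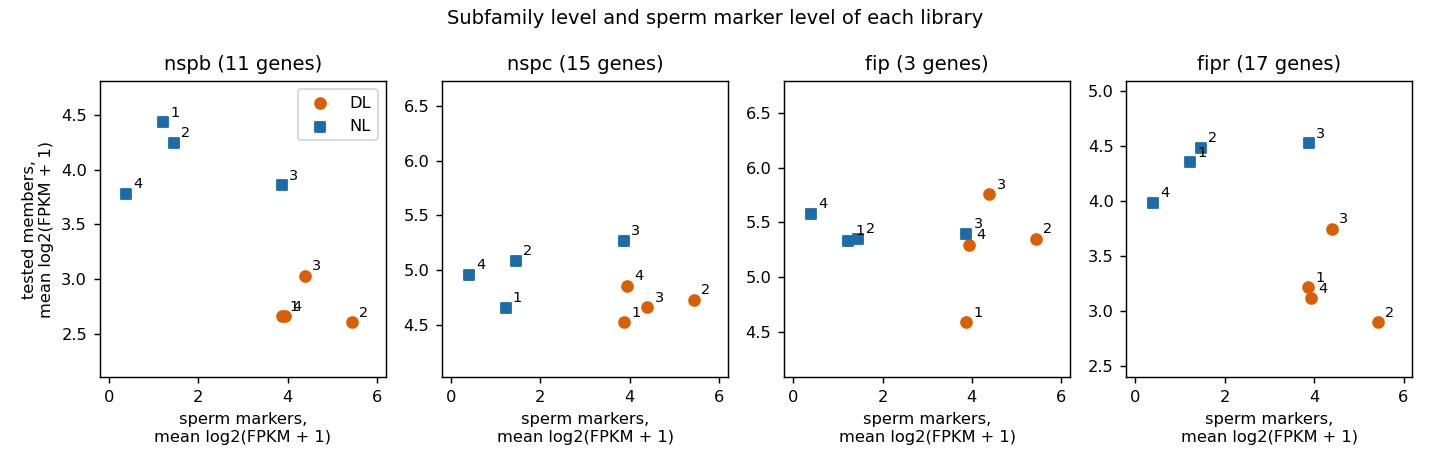
Each point is a library (DL circles, NL squares, numbered by replicate); x is the mean log2(FPKM + 1) of 11 sperm marker loci and y that of the tested members of a subfamily, with y axes of equal length. In nspb and fipr the 4 NL points lie above the 4 DL points, and in nspc and fip they overlap.

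Without NL 3 and DL 2 limma called 11 members lower and 0 higher in DL, all 7 among them. Over all genes that fit called 1493, with 268 lower (1.87% of those tested) and 1225 higher, so most calls there were in the other direction, and without NL 3 alone it called 386 lower and 1175 higher. With the sperm marker mean as a covariate it called 5, which were nspb-8, fipr-10, fipr-11, fipr-22 and fipr-23, beside 61 genes lower (0.425% of those tested) and 16 higher in DL. Of these, fipr-23 was tested through NL alone, chiefly NL 3. Leaving out NL 1 or NL 2 left 1 member called, nspb-8, among 5 of all 14358 tested genes called lower in DL in each fit. Leaving out NL 3 gave 16 members among 386 such genes. Without DL 3 the count of members was 4, among 10 genes called lower in DL, and without DL 4 it was 3, among 7. With the batch as a block it was 3 (nspb-8, fipr-10 and fipr-11), beside 0.0836% of all tested genes called lower in DL in that fit. Of the 7, nspb-8 was called in each of the 18 alternatives run.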

How the data were processed

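RNA of whole worms was measured in 8 libraries, 4 DL and 4 NL, grouped by the sample titles. The authors deposited FPKM values, per the file name, in 1 column per library. HISAT2, HTSeq and WBcel235 are named in the submitters' processing notes. For their versions, the annotation and how reads matching several copies were counted, the sources used here give nothing. Per the labels' protocols the kit was NEBNext Ultra, which does not mark strand. Symbols and coordinates came from the WBcel235 annotation of Ensembl release 115. Members and lists were chosen with earlier results of these data known.

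With annotated exon lengths, 22881 of 22985 genes (99.55%) gave whole reads in all libraries within 0.05 read, all 57 members among them; these reads describe depth and served as 1 alternative scaling. The totals behind the FPKM values were 0.938 (DL 3) to 1.159 (DL 1) times the recovered reads, a scaling the sources do not describe.

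Tests used limma 3.58.1 in R 4.3.3 on log2(FPKM + 1), which shrinks fold changes of weakly expressed genes, with an intensity trend, two-sided tests and a threshold of 0.05. Steps were tested on simulated data. Pairing comes from the labels, where libraries of one number belong to one batch; their deviations from the group means correlated by -0.01, -0.19, -0.32 and 0.19. Named genes were every called member, the 4 highest per subfamily and the 2 largest changes in each direction per subfamily with at least 5 FPKM in the higher group. Other members, neighbours and hosts were named after their values were seen. Alternatives covered the pseudocount, filter, scaling, block, each library left out and a covariate. Tables used pandas 2.3.3 and numpy 2.4.6 under Python 3.11.15, and figures matplotlib 3.10.9. Similarity between copies was not computed.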

Additional observations from a re-analysis of the deposited data

Results flagged for a closer look

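The summed FPKM of the 17 nspc genes was 657 in DL 2, below the other DL libraries at 829 to 852, a gap that took most of the range of the group. DL 2 also had the highest sperm and adult marker means of DL (5.43 and 5.79), and their part in the low sum was not tested. This was the 1 flag among 60 groups of 4 libraries examined, where chance gives about 1 in 20.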

How the results depend on the processing

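Across the 18 alternatives every member called was lower in DL, and medians kept their sign for nspb (-1.41 to -1.15), nspc (-0.47 to -0.23) and fipr (-1.37 to -0.87), whereas the fip median crossed 0 (-0.44 to 0.01), turning positive without DL 1. Beside 7 members and 101 genes, limma called 3 members and 33 genes with no filter on low values, 12 and 216 after quantile normalization, and 3 and 25 with the batch as a replicate block. Without NL 3 and DL 2 it called 11 members and 1493 genes, with a fipr median of -0.87. Leaving out 1 library at a time gave 1 to 16 members and 9 to 1561 genes, 9 without NL 1 or NL 2 and 1561 without NL 3. The cause of these shifts was not tested. The limma adjusted p over the alternatives ran from 0.00384 to 0.0406 for nspb-8, from 0.00394 to 0.0631 for fipr-11, from 0.00689 to 0.0665 for fipr-10, and up to 0.18 for nspb-3, 0.272 for nspb-7, 0.418 for nspb-1 and 0.515 for fipr-9. Among the named members that did not pass the test, the sign turned for nspc-1 and nspc-7 with the sperm marker covariate (-0.45 and -0.14), for fip-5 without DL 1 (0.01), for fipr-21 without NL 2 (-0.03) and for nspc-20 without NL 3 and DL 2 (0.08). The sperm marker covariate, the recovered read totals and the removal of both libraries were chosen after seeing the data. Members at a few reads are limited by depth, and levels of similar copies by counting.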
